A study of Homo sapiens with 4 samples.

Results

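The genes described here were 10 antioxidant genes measured in MV3 melanoma spheroids: NFE2L2, which encodes the transcription factor NRF2, the NRF2-responsive genes NQO1, HMOX1, GCLM, GCLC, TXNRD1 and SRXN1, and the superoxide dismutases SOD1, SOD2 and SOD3. They were found by symbol among 56304 gene rows, and all 10 passed the filter on low counts, which 15529 genes passed. The genes were chosen by their zone difference, because SOD2 stood out as higher in the spheroid core, and their own values are therefore given as a description without a p-value. The question was whether SOD2 was accompanied by the other antioxidant genes or stood apart from them.

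MV3 is an established human melanoma line, here carrying H2B-GFP, a green fluorescent histone that labels nuclei, in all libraries. Spheroids of 50000 cells were placed in collagen I and dissected at day 2, the core with a 1 mm punch and the ring of invading cells with a 3 mm punch. Bulk RNA sequencing was carried out on 2 core and 2 invasion zone libraries. The punch cuts vertically, so that a core sample can retain cells that invaded above or below it. The sources used here do not say whether the libraries came from separate cultures, and p-values then measure only the spread between these libraries.

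Superoxide dismutases convert superoxide into hydrogen peroxide. SOD1 does so in the cytosol with copper and zinc, SOD2 in the mitochondrial matrix with manganese, and SOD3 outside the cell with copper and zinc. NRF2 is held at a low level by KEAP1, which presents it to a ubiquitin ligase, and is stabilised when oxidants or electrophiles modify KEAP1. With a small MAF protein it binds antioxidant response elements (ARE) and switches on enzymes of glutathione synthesis, thioredoxin reduction, quinone reduction and haem breakdown. Because this control acts largely on the protein, the NFE2L2 transcript is not a measure of NRF2 activity.

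The libraries held 36363358 and 14983135 counts (core replicates 1 and 2) and 37591782 and 11789243 counts (invasion zone replicates 1 and 2), and replicate 2 was thus shallower in either zone. Levels are given as CPM, counts scaled to a common library total, with TMM factors, a correction for library composition. Of the melanocyte lineage markers, SOX10 and TYR had 0 counts in all 4 libraries and the 8 markers summed to 2.91 to 6.06 CPM over the 4 libraries. VIM and AXL, which are abundant in mesenchymal-like melanoma lines, were at 1696 to 2439 CPM and 629 to 1224 CPM, and NGFR was at most 0.0663 CPM. The 3 leukocyte markers summed to 1.13 to 1.56 CPM in core libraries against at most 0.337 CPM in invasion zone libraries, with CD3E at 0. The 3 endothelial markers summed to 7.63 to 18.3 CPM in core libraries against 0.926 to 5.76 CPM in invasion zone libraries, nearly all of it PECAM1, while VWF and CDH5 were at most 0.427 CPM. The part of these markers in the results below was not tested.

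SOD2, the mitochondrial enzyme (ENSG00000112096 in the table, chr6:159669069-159762281 on GRCh38, minus strand), was at 1054 CPM and 647 CPM in core replicates 1 and 2, and at 236 CPM and 120.1 CPM in invasion zone replicates 1 and 2. Both core libraries lay well above both invasion zone libraries, and the shallower replicate 2 was the lower one in each zone. The means were 850.5 ± 288 CPM for the core and 178 ± 82.3 CPM for the invasion zone (SD, n = 2). The fitted log2 fold change (invasion zone over core, as in all values that follow) was -2.25 ± 0.40 (SE), which is 4.76-fold more in the core. Within replicate numbers the core exceeded the invasion zone 4.46-fold and 5.39-fold. Of the 15529 genes tested, 181 had a lower log2 fold change than SOD2. In bulk samples such as these, fewer cells of a kind and less RNA per cell cannot be told apart.

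SOD3, the secreted enzyme (ENSG00000109610, chr4:24795573-24800842, plus strand), had the same direction at a far lower level. Its core libraries were at 12.2 CPM and 7.43 CPM and its invasion zone libraries at 3.76 CPM and 2.19 CPM, from 436, 112, 141 and 26 counts. The zones did not overlap, and the core was higher 3.24-fold and 3.40-fold within replicate numbers. The fitted log2 fold change was -1.66 ± 0.39 (SE). As for SOD2, replicate 1 was the higher library in each zone, by 1.64-fold in the core and 1.72-fold in the invasion zone, against 1.63-fold and 1.97-fold for SOD2.

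SOD1, the cytosolic enzyme (ENSG00000142168, chr21:31659693-31668931, plus strand), did not share this pattern. It was at 148 CPM and 133 CPM in the core and at 180.0 CPM and 147 CPM in the invasion zone, and the ranges of the zones overlapped. The fitted log2 fold change was 0.22 ± 0.16 (SE). CCS, the chaperone that loads copper into SOD1, was at 22.5 CPM and 25.9 CPM in the core and at 15.2 CPM and 16.4 CPM in the invasion zone, with a log2 fold change of -0.62 ± 0.18. The SOD1 pseudogenes SOD1P1 and SOD1P2 and the SOD2 pseudogene SOD2P1 had 0 counts over the 4 libraries, and SOD1P3 had 2.

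**Figure D1:**
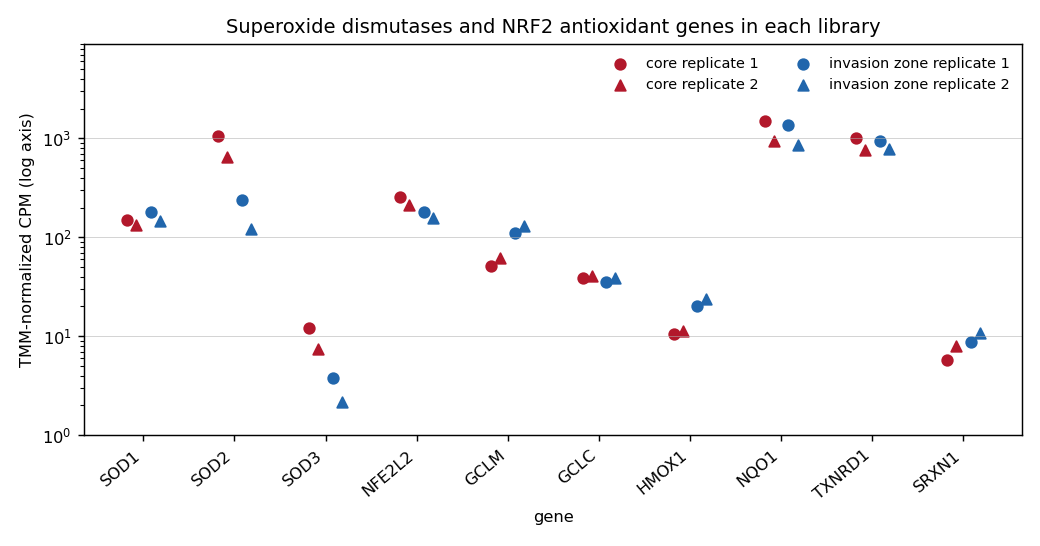
TMM-normalized CPM (log axis) of each of the 10 genes in each library, with the core in red, the invasion zone in blue, replicate 1 as circles and replicate 2 as triangles. SOD2 and SOD3 sat lower in both invasion zone libraries than in both core libraries, GCLM, HMOX1 and SRXN1 sat higher, and SOD1, GCLC, NQO1 and TXNRD1 overlapped between the zones.

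The NFE2L2 transcript (ENSG00000116044, chr2:177230303-177264727, minus strand) was at 256 CPM and 215 CPM in the core and at 182 CPM and 156 CPM in the invasion zone. The zones did not overlap, but the difference was much smaller than that of SOD2, at 1.41-fold and 1.38-fold more in the core within replicate numbers. The fitted log2 fold change was -0.48 ± 0.16 (SE).

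GCLM and GCLC encode the modifier and the catalytic subunit of glutamate-cysteine ligase, the rate-limiting enzyme of glutathione synthesis. GCLM (ENSG00000023909, chr1:93885199-93909430, minus strand) was at 51.0 CPM and 61.3 CPM in the core and at 111 CPM and 130 CPM in the invasion zone. Both invasion zone libraries were thus above both core libraries, opposite to SOD2, by 2.18-fold and 2.12-fold within replicate numbers, and the fitted log2 fold change was 1.10 ± 0.17 (SE). GCLC (ENSG00000001084, chr6:53497341-53545101, minus strand) was at 38.7 CPM and 40.5 CPM in the core and at 35.7 CPM and 39.0 CPM in the invasion zone. Its zones overlapped, with a log2 fold change of -0.08 ± 0.15, so that the modifier and catalytic subunits of this enzyme did not move together between the zones.

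HMOX1, which cleaves haem into biliverdin, iron and carbon monoxide, was low in both zones. The gene (ENSG00000100292, chr22:35381096-35394207, plus strand) was at 10.6 CPM and 11.3 CPM in the core and at 20.4 CPM and 23.9 CPM in the invasion zone. The zones were apart, with 1.92-fold and 2.11-fold more in the invasion zone within replicate numbers and a fitted log2 fold change of 1.01 ± 0.19 (SE). SRXN1, sulfiredoxin (ENSG00000271303, chr20:646615-653200, minus strand), which repairs overoxidised peroxiredoxins, was lower still, at 5.73 CPM and 7.89 CPM in the core and at 8.70 CPM and 10.8 CPM in the invasion zone. Its zones were apart by a small margin, with a fitted log2 fold change of 0.52 ± 0.28. SRXN1 shares 2292 of its 2528 exonic bases with a gene known only by a clone name on the same strand that received 7 counts in all, and reads in the shared exons could not be assigned to either by position alone, so that the SRXN1 level is uncertain.

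NQO1 and TXNRD1 were abundant in both zones and differed more between replicates than between zones. NQO1, a quinone reductase widely used as a marker of NRF2 activity (ENSG00000181019, chr16:69709401-69726560, minus strand), was at 1499.7 CPM and 934 CPM in the core and at 1373 CPM and 858.5 CPM in the invasion zone. Replicate 1 exceeded replicate 2 by 1.61-fold in the core and by a like ratio in the invasion zone, whereas the core exceeded the invasion zone by 1.09-fold in both replicate numbers. TXNRD1, the cytosolic thioredoxin reductase (ENSG00000198431, chr12:104215779-104350307, plus strand), was at 1016 CPM and 758 CPM in the core and at 949 CPM and 773 CPM in the invasion zone. The fitted log2 fold changes were -0.12 ± 0.33 for NQO1 and -0.04 ± 0.21 for TXNRD1 (SE). Both changed sign when core replicate 1 was left out (0.27 and 0.19) or invasion zone replicate 2 was left out (0.17 and 0.10). With 1 library left out the zones no longer hold the same replicate numbers, so that the difference between replicates enters these values.

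Of the 10 genes, 3 were higher in both invasion zone libraries than in both core libraries, 3 were lower in both, and 4 overlapped. Among all genes tested, 28.1% were higher and 30.3% lower in this sense. Since the genes were selected on this contrast, nothing is read from their count. The log2 fold change of SOD2 minus the median of the other 9 genes was -2.21, that median being -0.04, and the median of the 7 genes that are not superoxide dismutases was also -0.04. The median of all genes tested was -0.01. The direction was the same in both replicate numbers for 9 of the 10 genes, TXNRD1 being the exception. By these values SOD3 was the other gene of the 10 at least 2-fold higher in the core. NFE2L2 was also lower in the invasion zone, but 3409 of the genes tested had a lower log2 fold change. Of the 6 NRF2-responsive genes, 3 overlapped between the zones and 3 were higher in the invasion zone.

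**Figure D2:**
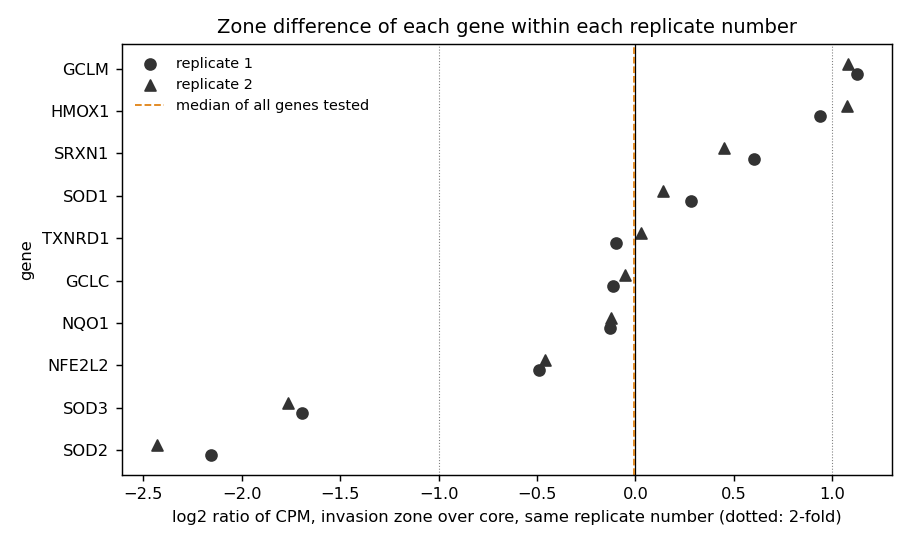
Log2 ratio of CPM, invasion zone over core, for each of the 10 genes within replicate 1 (circles) and replicate 2 (triangles), with dotted lines at 2-fold and a dashed line at the median of all genes tested. SOD2 and SOD3 lie beyond 2-fold toward the core in both replicates, GCLM lies beyond 2-fold toward the invasion zone in both, and HMOX1 lies at 0.94 and 1.08.

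The levels of these genes can be ordered only per length of transcript, here as CPM per kilobase of the GENCODE canonical transcript. In the core the order was NQO1 at 483, TXNRD1 at 230, SOD1 at 157, NFE2L2 at 96.2, SOD2 at 60.0, GCLM at 11.5, GCLC at 10.5, HMOX1 at 7.07, SOD3 at 6.93 and SRXN1 at 2.69 CPM per kilobase (means of 2 libraries). GCLM and GCLC overlapped in their values, and so did HMOX1 and SOD3. In the invasion zone the first 4 kept this order, with TXNRD1 and SOD1 overlapping, and were followed by GCLM at 24.7, HMOX1 at 14.2, SOD2 at 12.6, GCLC at 9.88, SRXN1 at 3.85 and SOD3 at 2.10 CPM per kilobase. The values of SOD2 overlapped with those of HMOX1 and GCLC there, whereas in the core SOD2 stood above GCLM, GCLC and HMOX1 without overlap. The canonical SOD2 transcript is 14167 bases long, and shorter SOD2 transcripts would give SOD2 a higher place.

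The antioxidant response element is where NRF2 binds, and the sequences near the starts of these genes are shown because the NRF2-responsive members differed among themselves. Promoter windows of 300 bases, 250 before to 50 after a RefSeq start on GRCh38.p14, were given for 8 of the 10 genes, in 13 windows. For SOD1 and HMOX1 no window was available, and their promoters were not searched. The ARE core TGACNNNGC was searched on both strands, where N is any base. It was in 13.3% of the 35116 windows of the genome and in 3 of the 13 windows of the 8 genes. These were windows of GCLM and TXNRD1 alone. The 250 bases before the GCLM start (chr1:93909431-93909680, minus strand) follow with the core in capitals, here on the opposite strand of the window and 34 bases before the start.
GCLM: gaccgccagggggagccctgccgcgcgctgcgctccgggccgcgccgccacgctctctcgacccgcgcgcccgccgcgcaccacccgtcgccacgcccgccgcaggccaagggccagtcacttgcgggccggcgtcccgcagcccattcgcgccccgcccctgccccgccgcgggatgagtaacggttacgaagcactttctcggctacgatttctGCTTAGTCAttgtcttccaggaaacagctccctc

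To compare the sites, each match is shown with 10 bases on either side, read on the strand that gives the core as TGACNNNGC, with the core in capitals. The positions on GRCh38 are chr1:93909446-93909474 (plus strand) for GCLM, chr12:104215670-104215698 (plus) and chr12:104215761-104215789 (minus) for the upstream start of TXNRD1 and chr12:104286920-104286948 (minus) for its downstream start.
GCLM: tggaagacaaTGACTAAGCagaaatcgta
TXNRD1 upstream start, first match: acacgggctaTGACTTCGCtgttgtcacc
TXNRD1 upstream start, second match: ctgtgggaacTGACGGAGCcgaaggacgc
TXNRD1 downstream start: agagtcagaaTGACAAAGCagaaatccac

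The match at the downstream TXNRD1 start shared 19 of its 29 bases with the GCLM match, and the matches at the upstream start shared 13 each. The letters TGAC and GC, which the search required, are among the shared bases in every match. Likeness beyond them was not tested. GCLM was higher in the invasion zone and TXNRD1 overlapped between the zones, so that genes with a core match near the start differed in their zone values. A search for the full site TGACTCAGC, in which the ARE contains an AP-1 site, from 5000 bases before to 50 bases after each start was chosen after the data were seen. The site was in 6.55% of all such windows and in 2 of the 13 windows of the 8 genes. The matches were in NQO1 (chr16:69726997-69727025, minus strand, 455 bases before the start) and GCLC (chr6:53548239-53548267, plus strand, 3156 bases before the start). They are shown in the same way.
NQO1: gcagtcacagTGACTCAGCagaatctgag
GCLC: cgcctccccgTGACTCAGCgctttgtgcg

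Neither NQO1 nor GCLC had zones apart. SOD2 has 4 RefSeq starts in the table. The ARE core, the AP-1 site TGACTCA (in 4.95% of all windows) and the NF-kappaB consensus (in 11.3%) had no match in any of its 4 windows or in the SOD3 window, which says only that these letters are absent from these windows. The AP-1 site and the NF-kappaB consensus had a match in 0 of the 13 windows of the 8 genes. Their absence was thus not particular to SOD2 and SOD3. Part of the window of the most downstream SOD2 start (chr6:159693292-159693491, minus strand, 250 to 51 bases before the start) is shown for comparison with GCLM. It is rich in G and C and contains no capitals because nothing searched for was found.
SOD2: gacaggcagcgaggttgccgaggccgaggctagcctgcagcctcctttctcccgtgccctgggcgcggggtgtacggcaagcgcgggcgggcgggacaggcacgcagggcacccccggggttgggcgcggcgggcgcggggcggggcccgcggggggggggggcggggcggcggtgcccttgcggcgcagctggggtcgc

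The genes most like SOD2 over the 4 libraries were found by the Euclidean distance between log2 CPM values, each centred on the gene's own mean, among 10581 genes with at least 5 CPM on average. The nearest were NREP at a distance of 0.164, IGFBP4 (an insulin-like growth factor binding protein) at 0.182, YPEL3 at 0.185, EBI3 (a cytokine subunit) at 0.285 and CEBPD (a transcription factor) at 0.321. IGFBP4, the most abundant of these, was at 395 CPM and 246 CPM in the core and at 97.2 CPM and 41.3 CPM in the invasion zone. None of the nearest 5 was among the 10 antioxidant genes. SOD3 was the nearest of these to SOD2, at 0.580 with 47 candidates nearer, followed by NFE2L2 at 1.92 with 1679 nearer. GCLM was the farthest, at 3.57 with 10189 nearer. The distances are a description of 4 libraries, which share their replicate structure and depth.

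The zone difference was then examined in genes of the same pathways that were not among the 10. The quasi-likelihood test of edgeR with Benjamini-Hochberg adjustment over the 15529 genes called 0 genes (0%) at an adjusted p under 0.05 and at least 2-fold, the smallest adjusted p being 0.103. At an unadjusted p under 0.05, 1905 genes (12.3%) were higher and 2045 (13.2%) lower in the invasion zone. Limma voom also called 0 genes at the same thresholds. DESeq2, for which 12819 genes had an adjusted p, called 354 (2.76%) as higher and 548 (4.27%) as lower. The core and its invasion zone were punched from one gel, and if equal replicate numbers mark one dissection, which the labels do not state, a replicate block applies. With that block edgeR called 588 of the 15529 genes as higher and 1147 as lower. In the lists below it then called 5 of 39 NRF2 targets, 1 of 15 regulators and 3 of 28 peroxide and thiol enzymes. It also called 1 of 8 superoxide sources and 7 of 23 NF-kappaB-inducible genes. Without the block it called 0 in each list, and enrichment of the lists was not tested. The counts below are read beside these percentages, and "passed DESeq2" means an adjusted p under 0.05 with at least 2-fold.

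Of 44 further NRF2 target genes, 39 were tested. In the invasion zone 12 of these (30.8%) were higher in both libraries than in both core libraries, 13 (33.3%) were lower and 14 overlapped, shares close to those of all genes. Their median log2 fold change was -0.03. At an unadjusted p under 0.05, 5 were higher and 5 lower, edgeR called 0 after adjustment, and 1 passed DESeq2 as higher and 3 as lower.

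The gene that passed as higher was SLC7A11, the cystine importer that supplies cysteine for glutathione. It was at 17.9 CPM and 20.4 CPM in the core and at 46.0 CPM and 50.3 CPM in the invasion zone (log2 fold change 1.33 ± 0.17, SE, DESeq2 adjusted p 2.88e-06). All values of the invasion zone were over those of the core by more than the spread within a zone. TXN, thioredoxin, had 135 CPM and 158 CPM in the core against 262 CPM and 283 CPM, with a log2 fold change of 0.89 ± 0.15 (DESeq2 adjusted p 0.000568), and did not reach 2-fold. OSGIN1, an oxidative stress-induced growth inhibitor, was at 6.32 CPM and 7.83 CPM against 11.5 CPM and 13.3 CPM (DESeq2 adjusted p 0.0746).

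Among NRF2 targets lower in the invasion zone, ABCC3, an exporter of organic anions and glutathione conjugates, was at 134 CPM and 84.7 CPM in the core and at 42.0 CPM and 13.9 CPM in the invasion zone (log2 fold change -1.94 ± 0.52, DESeq2 adjusted p 0.000974). GSTM3, a glutathione transferase, was at 26.6 CPM and 18 CPM against 13.2 CPM and 8.33 CPM (DESeq2 adjusted p 0.0355), and GSTM2 of the same family had a log2 fold change of -0.70 ± 0.32 (DESeq2 adjusted p 0.263). GSTM genes are close paralogs, and uniquely mapped reads may be split unevenly between them. The third gene that passed DESeq2 as lower, the non-coding RNA LUCAT1, was at 3.35 CPM and 7.76 CPM against 1.49 CPM and 0.842 CPM. It fell under the 5 CPM minimum for named genes and was singled out after its values were seen.

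The glutathione and thioredoxin routes are described gene by gene because GCLM and TXNRD1 belong to them. These genes beyond the 10 were grouped after their values were seen. Cystine import (SLC7A11, above), GCLM and GGCT were at least 2-fold higher in the invasion zone, whereas GCLC, GSS and GSR were alike in both zones. GGCT, which cleaves gamma-glutamyl dipeptides, was at 12.2 CPM and 18.8 CPM in the core and at 31.0 CPM and 35.0 CPM in the invasion zone (log2 fold change 1.10 ± 0.25, DESeq2 adjusted p 0.0068). GSS, glutathione synthetase, and GSR, glutathione reductase, each had a log2 fold change of 0.08 with an SE of 0.15, so that a difference beyond the spread was not seen. GPX4, which uses glutathione to reduce lipid peroxides, went toward the core, at 338 CPM and 242 CPM there against 169 CPM and 121 CPM (log2 fold change -1.0 ± 0.24, DESeq2 adjusted p 0.00573). GPX1 and PRDX6, which reduce peroxides with glutathione, had log2 fold changes of -0.15 ± 0.14 and 0.24 ± 0.14 (DESeq2 adjusted p 0.725 and 0.413).

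On the thioredoxin side, TXN was higher in the invasion zone while its reductase TXNRD1 overlapped. TXNIP, which binds and inhibits thioredoxin and is also known for its response to glucose, was at 101 CPM and 71.4 CPM in the core and at 9.82 CPM and 12.7 CPM in the invasion zone. This was the largest difference in any of the lists, with a log2 fold change of -2.96 ± 0.25 (SE) or 7.79-fold more in the core (edgeR adjusted p 0.103, DESeq2 adjusted p 1.61e-20). The peroxiredoxins PRDX1 and PRDX3, which reduce hydrogen peroxide with electrons from thioredoxin, had log2 fold changes of 0.35 ± 0.13 and 0.45 ± 0.15 (DESeq2 adjusted p 0.187 and 0.11). Those of PRDX2, PRDX4 and PRDX5, which also draw on thioredoxin, were -0.26 ± 0.14, -0.11 ± 0.13 and -0.44 ± 0.16 (DESeq2 adjusted p 0.489, 0.791 and 0.157). The zones were apart for all 5, 2 higher and 3 lower in the invasion zone, as they were for 28.1% (higher) and 30.3% (lower) of all genes tested. PRDX4 lay within its SE of 0. These 5 genes had no common direction.

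**Figure D3:**
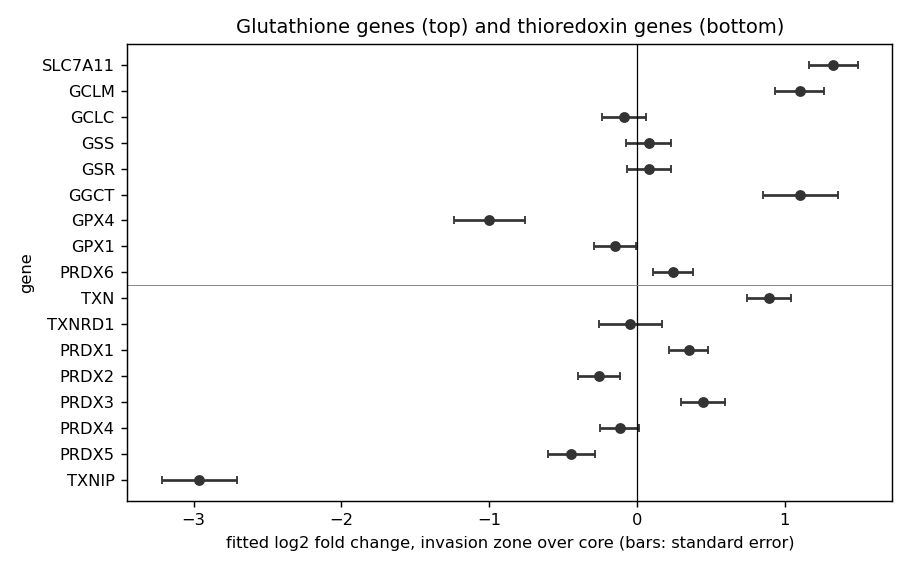
Fitted log2 fold change, invasion zone over core, of genes of the glutathione route (above the line) and the thioredoxin route (below it), with bars for the standard error. SLC7A11, GCLM and GGCT lie beyond 1, GPX4 at -1.0 and TXNIP at -2.96, while GCLC, GSS, GSR and TXNRD1 lie within 0.1 of 0.

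Of 30 peroxide and thiol enzymes outside the 10 genes, 28 were tested, a list to which GPX4, GGCT, TXNIP, PRDX3 and CCS belong. In the invasion zone 9 (32.1%, against 28.1% of all genes tested) were higher in both libraries. A further 14 (50%, against 30.3%) were lower and 5 overlapped. The median log2 fold change of the list was -0.06. At an unadjusted p under 0.05, 6 were higher and 8 lower. EdgeR called 0 after adjustment, and GGCT and TXNIP were the 2 that passed DESeq2. GLRX2 and GLRX3, glutaredoxins that handle glutathione-bound thiols and iron-sulfur clusters, were both higher in the invasion zone with a log2 fold change of 0.80 (SE 0.19 and 0.20, DESeq2 adjusted p 0.023 and 0.0174). MSRB2, a mitochondrial methionine sulfoxide reductase, had a log2 fold change of -0.89 ± 0.30. Catalase, CAT, which removes the hydrogen peroxide that superoxide dismutases form, was at 115 CPM and 109 CPM in the core and at 95.2 CPM and 78.1 CPM in the invasion zone (DESeq2 adjusted p 0.278).

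All 15 NRF2 regulators and partners were tested. Of these, 4 (26.7%, against 28.1% of all genes tested) were higher in both invasion zone libraries, 3 (20%, against 30.3%) were lower and 8 overlapped. Their median log2 fold change was -0.19. At an unadjusted p under 0.05, 1 was higher and 2 were lower, edgeR called 0 after adjustment, and PGAM5 was the 1 that passed DESeq2. PGAM5, a mitochondrial phosphatase that binds KEAP1, was at 40.6 CPM and 66.3 CPM in the core and at 94.1 CPM and 123 CPM in the invasion zone (log2 fold change 1.02 ± 0.27, DESeq2 adjusted p 0.0124). KEAP1 itself overlapped, at 156 CPM and 177 CPM in the core and at 143 CPM and 158 CPM in the invasion zone. The ligase subunits CUL3 and RBX1 had log2 fold changes of 0.12 ± 0.13 and 0.33 ± 0.18.

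BACH1, a repressor that occupies the same elements as NRF2 and is known for holding HMOX1 down, was at 102 CPM and 113 CPM in the core and at 73.6 CPM and 61.5 CPM in the invasion zone (log2 fold change -0.67 ± 0.16, DESeq2 adjusted p 0.0246, under 2-fold). HMOX1 was higher in the invasion zone, with a log2 fold change of 1.01, and a link to BACH1 was not tested. SQSTM1, the autophagy receptor that sequesters KEAP1, was at 1153 CPM and 1143 CPM in the core and at 885 CPM and 791 CPM in the invasion zone (DESeq2 adjusted p 0.0883). The small MAF partners MAFF, MAFG and MAFK overlapped between the zones, with log2 fold changes of -0.21, 0.14 and -0.23.

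Of 18 genes for enzymes that produce superoxide or peroxide, 8 were tested. The NADPH oxidase catalytic subunits NOX3, NOX4, NOX5 and CYBB were at most 0.133 CPM in any library, and NOX1 was at most 0.854 CPM. Of the 8 genes, 4 were higher in both invasion zone libraries (50%, against 28.1% of all genes tested) and 4 lower (50%, against 30.3%). Their median log2 fold change was 0.04. At an unadjusted p under 0.05, 0 were higher and 2 lower, and both edgeR after adjustment and DESeq2 called 0. XDH, xanthine dehydrogenase, was at 31.6 CPM and 39.4 CPM in the core and at 54.0 CPM and 40.8 CPM in the invasion zone, and the GTPase RAC1 had a log2 fold change of 0.28 ± 0.13. NOXA1, an activator of NOX1, was at 9.44 CPM and 7.43 CPM against 4.62 CPM and 1.94 CPM (DESeq2 adjusted p 0.0562). The log2 fold changes of RAC2 and CYBA, also parts of NADPH oxidase complexes, were -0.59 ± 0.14 and -0.20 ± 0.13.

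SOD2 is also well known as a gene induced by NF-kappaB, and 26 other genes with this property were listed. Of the 23 tested, 6 (26.1%, against 28.1% of all genes tested) were higher in both invasion zone libraries. A further 13 (56.5%, against 30.3%) were lower and 4 overlapped. The median log2 fold change of the list was -0.31. At an unadjusted p under 0.05, 1 was higher and 8 were lower. EdgeR called 0 after adjustment, and 5 passed DESeq2, all of them lower in the invasion zone. They were ICAM1, TNFAIP2, IER3, NFKBIZ and CCL20, of which the last 2 were singled out after their values were seen.

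ICAM1, an adhesion molecule for leukocytes, was at 136 CPM and 129 CPM in the core and at 53.1 CPM and 34.4 CPM in the invasion zone (log2 fold change -1.59 ± 0.23, DESeq2 adjusted p 7.16e-07). TNFAIP2 had a log2 fold change of -1.39 ± 0.41 and IER3, an early stress-response gene, of -1.33 ± 0.38. The direction was not shared by the whole list. BIRC3, an inhibitor of apoptosis, was at 31.9 CPM and 47.6 CPM in the core and at 54.2 CPM and 78.6 CPM in the invasion zone, and CXCL3 and CD83 had log2 fold changes of 0.50 ± 0.26 and 0.28 ± 0.20. NFKBIA, the inhibitor that NF-kappaB induces as feedback, had a log2 fold change of -0.42 ± 0.17, and CXCL8 one of 0.14 ± 0.14.

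**Figure D4:**
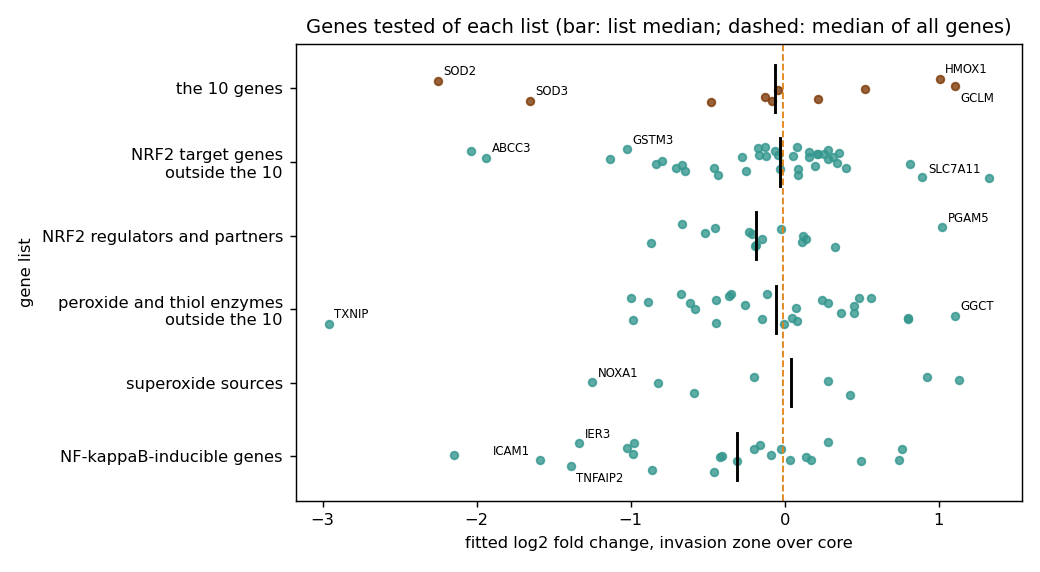
Fitted log2 fold change, invasion zone over core, of the 10 genes and of each tested gene in the 5 lists, with a bar at each list's median and a dashed line at the median of all genes tested (-0.01). The list medians lie between -0.31 and 0.04, and SOD2 at -2.25 lies toward the low end of the plot with TXNIP, CCL20, LUCAT1 and ABCC3.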

How the data were processed

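RNA from MV3 spheroid cores and invasion zones was amplified to full-length cDNA with the SMARTer Ultra Low Input kit, sheared and sequenced. Per the sources, the authors removed ribosomal reads with Bowtie, used default STAR parameters for alignment to hg38 and HTSeq-count for uniquely mapped reads, and they deposited raw counts per gene. The strand setting, tool versions and annotation release are not given in these sources. Without strand, reads of overlapping genes on opposite strands cannot be told apart. This holds for SOD2 with ACAT2 and WTAP (570 of 18144 exonic bases), NFE2L2 (3710 of 14975), NQO1 (575 of 2971) and GCLC (305 of 8618). Besides SRXN1, exonic bases were shared with another gene on the same strand by NFE2L2 (2037), SOD2 (939) and GCLC (529). Position alone cannot assign reads there.

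The table had 56306 gene rows, of which 2 repeated rows without counts were left out. In R 4.3.3, edgeR 4.0.16 kept genes with the equivalent of 10 counts in a library of median size, in 2 libraries or more, and a total of at least 15. Library sizes were scaled by TMM, and the zones were compared by the quasi-likelihood test with zone as the only term, on all 4 libraries, with Benjamini-Hochberg adjustment. Fitted log2 fold changes are those of edgeR, also where a DESeq2 adjusted p stands beside them. Their SE is the absolute log2 fold change divided by the square root of the F statistic of the test. The edgeR step was also run on simulated counts with known changes. Their spread was set and not fitted to these libraries, so that run does not show how the test performs on these data. Alternatives used DESeq2 1.42.0, limma 3.58.1, other scalings, filters and terms, and left out each library in turn. Replicate libraries differed beyond counting error (chi-square per degree of freedom 33.83 in the core and 31.9 in the invasion zone). The 10 genes, the 5 lists and the tests were chosen with earlier results of these data known. Named from each list were up to 3 genes per direction with the largest difference, among genes with non-overlapping zones and at least 5 CPM where edgeR called none, and any NRF2 regulator. Further genes were added after their values were seen. In the peroxide and thiol list these were CAT, CCS, PRDX2 to PRDX6, GPX1 and GSS, and in the NRF2 target list PRDX1, GSR, LUCAT1, FTH1 and FTL. In the superoxide list they were NOX1, NOX3, NOX4, NOX5 and CYBB, and in the NF-kappaB list NFKBIA, CXCL8, NFKBIZ and CCL20. Gene positions came from RefSeq on GRCh38.p14, and transcript lengths and overlapping exons from GENCODE 44, which holds 98.1% of the table's identifiers. The SOD2 identifier was not among them, and the SOD2 gene of that release was used for its length. Promoter windows came from the RefSeq table of the same build, and the 5000-base windows were read from hg38. Figures were drawn with matplotlib 3.10.9.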

Additional observations from a re-analysis of the deposited data

How the results depend on the processing

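The edgeR count of 0 genes in each direction stayed with RLE scaling, at least 10 counts in every library, limma voom, the legacy quasi-likelihood test and no fold change minimum. It became 81 higher and 191 lower with no count filter, 588 and 1147 with a replicate block, 354 and 548 with DESeq2, 495 and 995 at an unadjusted p, and 427 and 731 with DESeq2 and the replicate block, an alternative chosen after the data were seen. With 1 library left out, the remaining library of that zone being assumed to vary like the others, counts were 0 to 534 higher and 29 to 986 lower, namely 0 and 29 without core replicate 1, 455 and 449 without core replicate 2, 534 and 986 when invasion zone replicate 1 was left out and 39 and 148 when its replicate 2 was. The cause was not tested.

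The main test covered 39 NRF2 targets, 15 regulators, 28 peroxide and thiol enzymes, 8 superoxide sources and 23 NF-kappaB-inducible genes, among 15529 genes. From 0 in each list, the genes called became 5, 1, 3, 1 and 7, in this order, with the replicate block. DESeq2 called 4, 1, 2, 0 and 5. The counts were 4, 1, 2, 1 and 5 at an unadjusted p, and 1, 0, 1, 0 and 2 with no count filter. With 1 library left out they ranged from 0 to 5, 0 to 1, 1 to 4, 0 to 1 and 0 to 6. The 12 list genes called by DESeq2 were all among those called with the replicate block.

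Whether equal replicate numbers mark one dissection is not stated in the labels, and with 2 pairs the data do not settle it. The numbers in the library names are consecutive for same-numbered libraries and far apart otherwise, but what they mark is not stated. Deviations from the zone means correlated between same-numbered libraries across genes (r = 0.584). SOD2 minus the median of the other 9 genes (-2.21) ranged from -2.81 to -2.02 with 1 library left out and was -2.25 with the replicate block. The sign of 8 of the 10 genes held in all 8 alternatives, and SOD2 ranged from -2.82 to -1.85, SOD3 from -2.19 to -1.24 and GCLM from 0.99 to 1.25. A looser ARE core, TGANNNNGC, was in windows of 6 genes instead of 2, SOD2 and SOD3 included. It was in 9 of the 13 windows of these genes, against 41.8% of all windows. The shallower replicate 2 libraries limit the low genes most, SOD3 having 26 counts in invasion zone replicate 2.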

Other observations

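Iron handling is linked to HMOX1, which releases iron from haem, and to the NRF2-responsive ferritin genes, and 13 genes of iron uptake, storage and sensing were looked at after the data had been seen. The ferritin genes FTH1 and FTL are described beside them but belong to the NRF2 target list and not to the 13. TFRC, the transferrin receptor that imports iron, was at 202 CPM and 323 CPM in the core and at 421 CPM and 708 CPM in the invasion zone, above both core libraries in each case (log2 fold change 1.10 ± 0.33, SE, DESeq2 adjusted p 0.0134, edgeR adjusted p 0.14). FTH1, the heavy chain of ferritin, which stores iron, was at 522 CPM and 600.1 CPM in the core and at 323 CPM and 392 CPM in the invasion zone (log2 fold change -0.65 ± 0.17, DESeq2 adjusted p 0.0324), while the light chain FTL had a log2 fold change of -0.17 ± 0.23. ACO1, which acts as an iron sensor when it lacks its iron-sulfur cluster, was at 526 CPM and 449 CPM against 401 CPM and 316 CPM (DESeq2 adjusted p 0.183). SLC11A2, which carries iron out of endosomes, and SLC25A37, which carries it into mitochondria, had log2 fold changes of -0.41 ± 0.14 and -0.47 ± 0.18 (DESeq2 adjusted p 0.193 and 0.187). HMOX2, the constitutive haem oxygenase, had a log2 fold change of 0.27 ± 0.17 (DESeq2 adjusted p 0.47), against 1.01 for HMOX1. The iron exporter SLC40A1 had 1 count over the 4 libraries. NCOA4 had a log2 fold change of -0.21 ± 0.15, and STEAP3, IREB2, SLC25A28, SLC39A14, PCBP1 and PCBP2 overlapped between the zones. Of the 13 genes, TFRC was the 1 past 2-fold with a DESeq2 adjusted p under 0.05. Among all genes DESeq2 called 2.76% as higher and 4.27% as lower, and nothing is read from this count.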
